A study of Homo sapiens with 12 samples.

Results

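Transcripts of 10 genes whose products are recognised by activating receptors of natural killer (NK) cells were measured in the bladder cancer cell line HT1376. The genes were taken by symbol, and each of the 10 names matched exactly 1 of the 60666 rows of the count table. The products of 8 of them are ligands of the receptor NKG2D, namely MICA, MICB, ULBP1, ULBP2, ULBP3, RAET1E, RAET1G and RAET1L. NCR3LG1, also called B7-H6, is a ligand of NKp30, and CD48 is the ligand of CD244 (2B4). HT1376 is an epithelial line from a human bladder carcinoma. The CT line carries a CRISPR guide against luciferase, and the FOXP3 KO line was made with CRISPR guides against exon 2 of FOXP3. FOXP3 is the forkhead transcription factor known from regulatory T cells. Each line was sequenced without stimulation, which the labels abbreviate as UTR, and after culture with IFNγ for 48 hours, with 3 libraries numbered 11, 12 and 13 in each of the 4 groups. Both lines are single-cell clones, so the loss of FOXP3 and other differences between these clones cannot be told apart. The labels do not say whether the 3 libraries of a group came from separate cultures, so p-values measure only the spread between these libraries.

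NKG2D is an activating receptor of NK cells and of cytotoxic T cells, and its ligands are distant relatives of MHC class I molecules that carry no peptide. MICA and MICB span the membrane, whereas most ULBP and RAET1 proteins are held by a glycolipid anchor. Healthy epithelium shows little of these ligands, while transformed, infected or heat-shocked cells display more, and tumour cells can also release them from the surface by proteolysis. IFNγ, made by activated NK and T cells, raises MHC class I, which engages the inhibitory receptors of the same NK cells.

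The 10 genes lie at 4 places in the GRCh38 genome. MICA (chr6:31399784-31415315, plus strand) and MICB (chr6:31494881-31511124, plus strand) sit 79.6 kb apart in the MHC region at 6p21. RAET1E, RAET1G, ULBP2, ULBP1, RAET1L and ULBP3 follow one another in this order over 185.9 kb at 6q25, from chr6:149883179 to chr6:150069121. NCR3LG1 is at chr11:17351800-17377341 (plus strand), and CD48 is at chr1:160678746-160711831 (minus strand). All 10 are annotated as protein coding.

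The start regions of the genes were searched for short motifs of factors that bear on this design, on both strands of the 300 bases from 250 before to 50 after each RefSeq start (GRCh38.p14). The table held 12 such regions for the 10 genes. Heat shock elements are shown because MICA and MICB are known heat shock targets. The motif GAANNTTC was present in MICA, MICB and CD48 and in 6.77% of all 35116 promoters of this length. In the 30-base stretches below, read 5′ to 3′ on the strand of the gene, capitals mark the motif:
MICA: ccagcccactgGAATTTTCtcttccaagcg
MICB: ccaggccgctaGAATTTTCtcttctgaacg
CD48: gtagaagctatGAATCTTCcccctacaaaa
The MICA stretch (chr6:31403449-31403478) places the motif at -135 to -128 from the start, with the start base as 0, and lies within an annotated exon. The MICB stretch (chr6:31497995-31498024) places it at -139 to -132, within an annotated intron. The MICA and MICB stretches share 24 of 30 bases. The CD48 stretch (chr1:160712012-160712041) lies outside the annotated gene, with the motif at -208 to -201.

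Forkhead motifs are shown because the gene targeted in the KO line encodes a forkhead factor. Only the ULBP1 region held them, with TAAACA in 12.3% and TGTTTAC in 3.42% of all promoters. The upstream ULBP1 stretch (chr6:149963698-149963726) has TGTTTAC at -234 to -228, which overlaps a reverse TAAACA, and the downstream stretch (chr6:149963970-149963992) has TAAACA at 38 to 43 in an exon:
ULBP1 upstream: ctgtgcatcagTGTTTACactggggtaat
ULBP1 downstream: gggcagctttaTAAACAgccgtg
The motif TTCNNNGAA, the gamma-activated sequence known from promoters that respond to IFNγ, was found only in RAET1E and in 7.66% of all promoters. It stood at -165 to -157 within an intron (chr6:149896277-149896306, minus strand):
RAET1E: ccatggttactTTCTTTGAAgtctgttcca
The interferon-response core GAAANNGAA (8.11% of all promoters) and the cyclic AMP element TGACGTCA (1.85%) were in none of the 12 regions. The GC box GGGCGG was in 7 of the 10 genes and in 45.0% of all promoters, and ULBP3 held 6 copies of it. These are matches of letters and not shown to be binding sites.

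The 12 libraries held from 4490684 to 39270042 counts, with a median of 15551201. The shallowest was the IFNγ-treated CT library 12, so its values carry the widest counting error. FOXP3 itself had at most 3 counts in any library of either line and could not check the KO label. IRF1, which IFNγ induces, checked the treatment. It rose by 3.83 on the log2 scale in CT and by 2.91 in KO, with a called interaction (-0.93 ± 0.15, adjusted p = 0.0171) and a lower level in KO under IFNγ (-1.17). The 8 epithelial markers were present in every library, with summed levels from 3931 to 5044 normalised CPM (counts scaled to library size with TMM factors). Among them, KRT7 was higher in KO (0.95 untreated and 1.52 under IFNγ), EPCAM (-1.92 and -1.73) and CDH1 (-0.65 and -0.52) were lower in both comparisons, and GATA3 was lower untreated (-0.68) and at -0.39 under IFNγ (adjusted p = 0.0608, and 0.0173 with the library number as a block). Of the 8, 3 were lower and 1 higher in untreated KO, against 18.2% and 14.0% of all genes. Under IFNγ, 2 were lower and 1 higher, against 15.7% and 13.2%. With the block, 4 of the 8 were lower in KO in each comparison, against 20.6% and 17.9% of all genes. In each, 1 was higher (15.9% and 16.0%). With the block, IFNγ lowered 4 in CT and 1 in KO (9.88% and 1.6% of all genes), where none was called without it. Of 14 leukocyte markers, CD2 and NKG7 had 0 counts in all 12 libraries and PTPRC stayed at or below 25 counts. CD3E had 48 counts in untreated CT and 2 in untreated KO. Of 7 leukocyte markers tested between the untreated lines, CD3E was lower in KO and CD244 was higher, against 18.2% and 14.0% of all genes. CD3E reached the minimum of 10 counts for testing only through CT, and CD244 only through KO. With the block, 2 of the 7 were lower and 1 was higher (20.6% and 15.9% of all genes). The leukocyte sum reached 3.69 normalised CPM in CT and 13.0 in KO, and without CD244 it reached 2.68 in KO. The part of other cell types in the results was not tested beyond these values. In bulk libraries, fewer cells with a transcript and less of it per cell cannot be told apart.

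Between the untreated lines, 6 of the 9 ligand genes tested were lower in FOXP3 KO (MICA, MICB, ULBP1, ULBP2, ULBP3 and RAET1L) and none was higher. Among all 25320 genes tested in this comparison, 18.2% were lower and 14.0% were higher at an adjusted p under 0.05 (edgeR quasi-likelihood test). Under IFNγ, 5 of 9 were lower in KO (the same genes except ULBP1) and none was higher, against 15.7% lower and 13.2% higher among all 24388 genes. In CT cells, IFNγ raised MICA and MICB and lowered ULBP3, where 3.53% of 24416 genes rose and 1.82% fell. These shares stand for 1307 genes, and 761 to 839 were called without untreated CT library 11 or 13 or IFNγ-treated CT library 13. In KO cells, MICB rose and no ligand gene fell, where 0.978% of 24131 genes rose and 0.00414% fell. These fits left out the library number. With it as a block, MICA was also called higher in KO, and ULBP2 and NCR3LG1 were also called lower in CT. In the blocked fits, 3.92% of all genes rose in KO and 9.88% fell in CT. The difference of the IFNγ response between the lines was not called for any of the 10 genes tested, although 2 had an unadjusted p under 0.05. DESeq2 called none of them either. CD48, at 0 counts in every CT library, gave no usable estimate of this difference (standard error 2923 on the log2 scale), so only the other 9 genes bear on it. Of all 27806 genes, edgeR called 0.111% for this difference. The median log2 difference of the 9 genes between KO and CT was -1.37 untreated and -0.73 under IFNγ, beside -0.02 and 0.02 for all genes tested. CD48 had too few counts to be tested in 3 of the 4 pairwise comparisons, and the other 9 genes passed the minimum of 10 counts in each of them. RAET1L passed it between the lines mainly through the CT libraries.

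**Figure D1:**
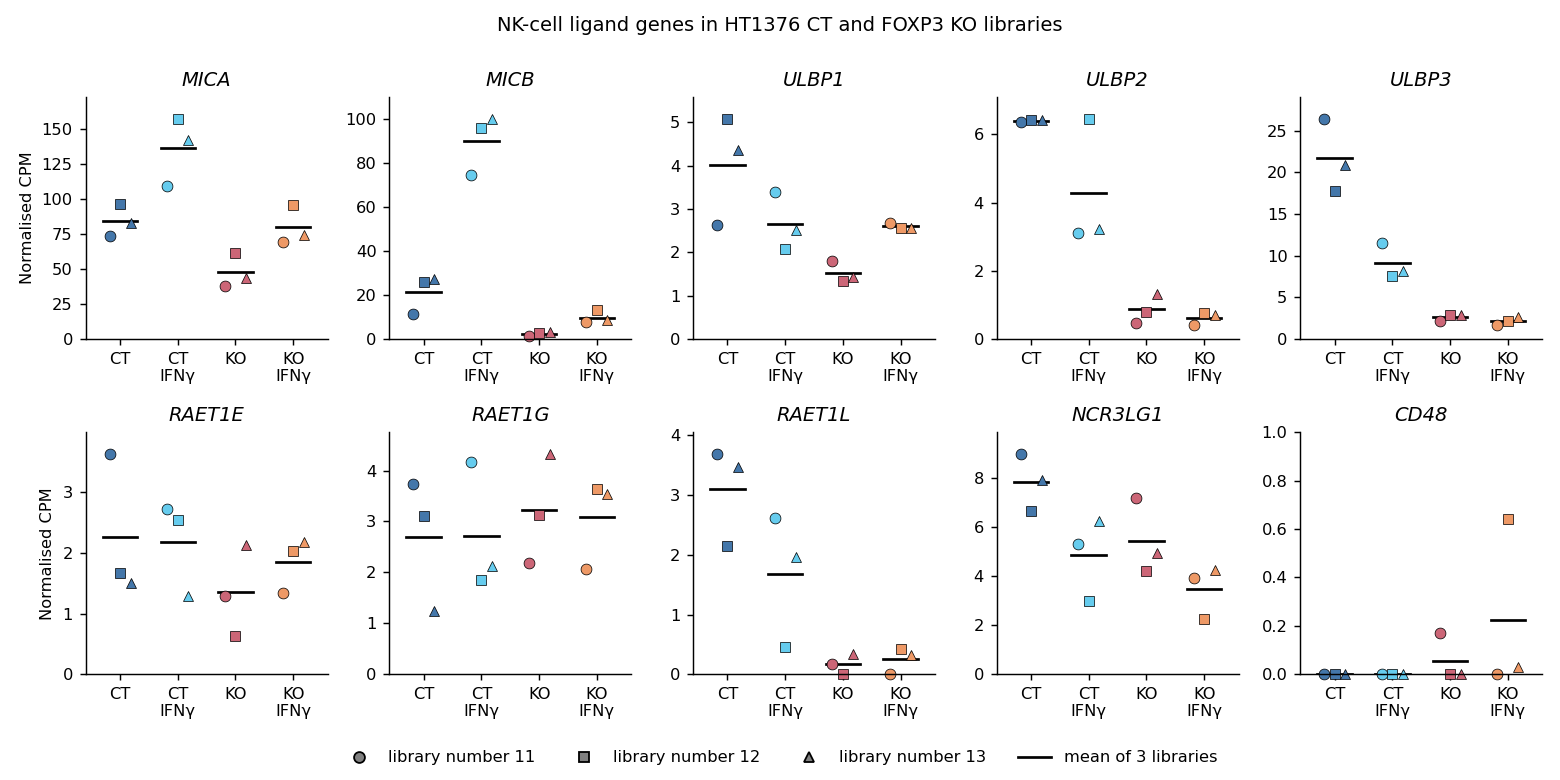
Normalised CPM (y axis, linear from 0, own scale per gene) of the 10 ligand genes in the 4 groups (x axis), with 1 symbol per library by its number and a bar for the mean of 3 libraries. MICB stands at 74.6 to 100.2 in IFNγ-treated CT libraries and at 1.42 to 13.2 in all 6 KO libraries, while CD48 is at 0 in all 6 CT libraries.

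**Figure D2:**
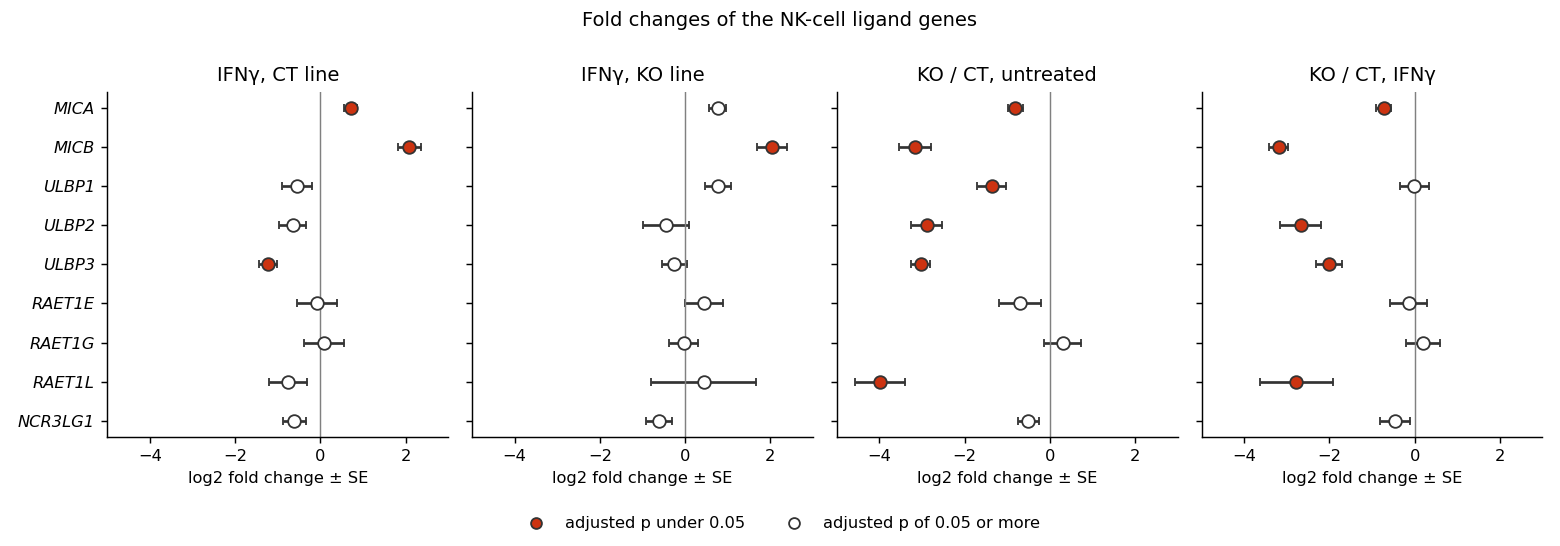
Log2 fold changes (x axis) with standard errors for 9 ligand genes (y axis) in the 4 pairwise comparisons of 3 against 3 libraries. Filled points passed an adjusted p under 0.05, which 6 genes did between the untreated lines and 1 did with IFNγ in KO cells. CD48 is not drawn because it was tested in only 1 of these comparisons.

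MICA was the most abundant ligand in every group. It was at 73.8, 96.7 and 82.7 normalised CPM in the untreated CT libraries 11, 12 and 13, and at 38.11, 61.44 and 43.68 in the untreated KO libraries. Every KO library was thus below every CT library. The difference was -0.82 ± 0.18 (log2 ± SE, adjusted p = 0.0051), a 1.76-fold lower level, with ratios between same-numbered libraries from 1.57 to 1.94. With IFNγ the CT libraries reached 109, 157 and 142, and the KO libraries reached 69.6, 95.5 and 74.5. The lines again did not overlap, and KO was lower by 0.73 ± 0.17 (adjusted p = 0.0088). The IFNγ-treated KO libraries lay in the range of the untreated CT libraries or just below it.

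The rise of MICA with IFNγ was 0.71 ± 0.15 on the log2 scale in CT (adjusted p = 0.0195) and 0.77 ± 0.20 in KO (adjusted p = 0.262). Untreated and treated libraries did not overlap in either line, and all 3 numbered pairs rose in each, by 1.48- to 1.72-fold in CT and by 1.55- to 1.83-fold in KO. The CT call was lost when CT library 11 or 13 or IFNγ-treated CT library 12 or 13 was left out (adjusted p = 0.0505 to 0.0946). With the library number as a block, the KO rise was called (0.78 ± 0.08, adjusted p = 2.53e-20, and 2.04e-06 with bias-adjusted deviance). In that fit 3.92% of all genes rose in KO. The interaction of line and IFNγ was 0.06 ± 0.26 for MICA (adjusted p = 0.9999).

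MICB, the close relative of MICA, had the largest log2 rise with IFNγ among the ligand genes. It went from 11.4, 25.8 and 27.3 normalised CPM to 74.6, 96.0 and 100.2 in CT, and from 1.42, 2.78 and 3.11 to 7.64, 13.2 and 8.46 in KO. These 4 groups form separate ranges except that the highest IFNγ-treated KO library (13.2) passes the lowest untreated CT library (11.4). The rise was 2.08 ± 0.27 on the log2 scale in CT (adjusted p = 0.00063) and 2.04 ± 0.35 in KO (adjusted p = 0.0273). Every numbered pair rose, by 3.67- to 6.55-fold in CT and by 2.72- to 5.38-fold in KO. The KO call was lost, with adjusted p-values of 0.0621 to 0.0926, without untreated KO library 11 or 13 or without any 1 of the IFNγ-treated KO libraries 11, 12 and 13, and it was kept without untreated KO library 12 (adjusted p = 0.0471). The interaction was -0.05 ± 0.49 (adjusted p = 0.9999).

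Between the lines MICB differed by much more than MICA. It was 8.97-fold lower in untreated KO (log2 -3.17 ± 0.38, adjusted p = 9.2e-05) and 9.12-fold lower under IFNγ (-3.19 ± 0.22, adjusted p = 1.8e-06). The ratio of same-numbered CT and KO libraries was 8.02 to 9.28 untreated and 7.30 to 11.8 under IFNγ. Neither call changed when any library was left out. No stretch of 100 bases of MICA or MICB exons recurs in the exons of another annotated gene.

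ULBP3 was the only ligand gene called lower with IFNγ in either line without a block. It stood at 26.5, 17.8 and 20.95 normalised CPM in untreated CT libraries and at 11.5, 7.62 and 8.22 under IFNγ. No treated CT library reached an untreated one. The fall was by 1.22 ± 0.21 on the log2 scale (adjusted p = 0.0054), and the numbered pairs fell by 2.29- to 2.55-fold. In KO cells ULBP3 was at 2.19, 2.87 and 2.94 untreated and at 1.74, 2.14 and 2.66 with IFNγ, and these ranges overlap (-0.25 ± 0.30, adjusted p = 0.999). The interaction was 0.99 ± 0.35, with an unadjusted p of 0.0126 and an adjusted p of 0.679, so the responses of the lines were not shown to differ. ULBP3 was 8.18-fold lower in untreated KO (-3.03 ± 0.22, adjusted p = 2.7e-06) and 4.02-fold lower under IFNγ (-2.01 ± 0.30, adjusted p = 0.00043).

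ULBP2 was at 6.36, 6.44 and 6.41 normalised CPM in untreated CT libraries and at 0.473, 0.806 and 1.33 in untreated KO libraries. The KO level was 7.41-fold lower (-2.89 ± 0.37, adjusted p = 0.00014), and each CT library was above each KO library. Under IFNγ the CT libraries were at 3.10, 6.46 and 3.24 and the KO libraries at 0.402, 0.749 and 0.713, a 6.37-fold difference (-2.67 ± 0.48, adjusted p = 0.0016). The IFNγ effect in CT was -0.65 ± 0.31 (adjusted p = 0.305), with library 12 at its untreated level and the other two 1.98- to 2.05-fold lower. With the library number as a block it was called lower (-0.70 ± 0.25, adjusted p = 0.0296, and 0.0428 with bias-adjusted deviance), in a fit that called 9.88% of all genes lower and 8.67% higher. Of its distinct 100-base exon stretches, 12.1% recur in RAET1G or RAET1L, and reads from them may be missing from its counts or shared.

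ULBP1 was the ligand whose difference between the lines was called without IFNγ and not with it. Untreated CT libraries were at 2.63, 5.09 and 4.36 normalised CPM and untreated KO libraries at 1.81, 1.34 and 1.44, without overlap (-1.37 ± 0.34, adjusted p = 0.0102). Without CT library 13 the adjusted p was 0.0519. Under IFNγ, CT libraries were at 3.40, 2.08 and 2.52 and KO libraries at 2.68, 2.57 and 2.56, so that the KO values lay inside the CT range (-0.01 ± 0.34, adjusted p = 0.987). ULBP1 was higher with IFNγ in all 3 KO pairs (0.77 ± 0.30, adjusted p = 0.765) and lower in 2 of 3 CT pairs (-0.55 ± 0.35, adjusted p = 0.469). The interaction, which tests that contrast, was 1.31 ± 0.46 with an unadjusted p of 0.0117 and an adjusted p of 0.672.

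RAET1L, also called ULBP6, was close to absent from the KO line. Counts were 63, 27 and 132 in the untreated CT libraries and 4, 0 and 6 in the untreated KO libraries. The levels were 3.68, 2.15 and 3.47 normalised CPM in CT and 0.172, 0 and 0.346 in KO, where a count of 0 in KO library 12 allows up to 0.286 CPM. KO was lower by 3.99 ± 0.59 on the log2 scale (adjusted p = 0.0004). Under IFNγ the counts were 27, 2 and 35 in CT and 0, 4 and 10 in KO. The groups were separate only narrowly there, since CT library 12 had 0.462 and KO library 12 had 0.428 normalised CPM. That difference (-2.77 ± 0.85, adjusted p = 0.0305) had an adjusted p of 0.0661 to 0.114 without IFNγ-treated CT library 11 or 13 or IFNγ-treated KO library 11 or 13. A stricter count filter (filterByExpr) dropped the gene from that comparison. Of its 100-base stretches, 11.8% recur in RAET1G or ULBP2.

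RAET1G and RAET1E did not separate the groups. RAET1G was at 3.74, 3.10 and 1.24 normalised CPM in untreated CT and at 2.19, 3.13 and 4.32 in untreated KO, and KO was higher in 2 of 3 numbered pairs (0.30 ± 0.43, adjusted p = 0.652). RAET1E was at 3.62, 1.67 and 1.498 in untreated CT and at 1.29, 0.627 and 2.13 in untreated KO (-0.69 ± 0.49, adjusted p = 0.322). Under IFNγ, RAET1G differed between the lines by 0.20 ± 0.41 and RAET1E by -0.14 ± 0.44, with adjusted p-values of 0.762 and 0.849. Neither gene was called with IFNγ in either line, with log2 changes from -0.08 to 0.45. RAET1E shares 14.6% of its exon bases with a second protein-coding gene on the same strand, and reads there belong to neither gene alone. At 382 and 574 counts over all 12 libraries, these 2 genes allow only coarse comparisons.

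NCR3LG1 was measured at 8.99, 6.68 and 7.94 normalised CPM in untreated CT and at 5.34, 3.001 and 6.26 with IFNγ. The ranges do not overlap, and all 3 pairs were lower with IFNγ, by 1.27- to 2.22-fold. The effect was -0.62 ± 0.27 with an adjusted p of 0.269, and with the block it was -0.63 ± 0.22 with an adjusted p of 0.0286 (0.0706 with bias-adjusted deviance). In KO the libraries went from 7.18, 4.21 and 4.96 to 3.95, 2.25 and 4.28, again lower in 3 of 3 pairs (-0.61 ± 0.31, adjusted p = 0.999). KO was lower than CT in all 3 numbered pairs of both treatments, by 1.25- to 1.60-fold untreated and by 1.34- to 1.46-fold under IFNγ. None of these was called without the block (adjusted p = 0.148 untreated and 0.379 under IFNγ). The untreated difference was called only with the block and bias-adjusted deviance together (-0.52, adjusted p = 0.0462).

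CD48, a GPI-anchored protein found mainly on blood cells, had 0 counts in all 6 CT libraries, which allows levels of up to 0.0764 to 0.668 CPM, depending on the depth of the library. KO libraries 11, 12 and 13 had 4, 0 and 0 counts untreated and 0, 6 and 1 with IFNγ. These counts are too few for a fold change. An antisense RNA overlaps 29.99% of its exon bases and had 31 counts, and the strand setting of the counting is not given in the sources used here. SLAMF7 and CD244, of the same SLAM family at 1q23, differed between the lines by many more counts. SLAMF7 had 575 counts in untreated KO and 11 in untreated CT, with 9.08, 27.7 and 3.17 normalised CPM in KO libraries 11, 12 and 13 and at most 0.210 in CT (log2 6.34 ± 0.89, adjusted p = 0.00028). CD244, the receptor of CD48, had 398 counts in untreated KO and 1 in untreated CT, and 334 and 1 with IFNγ. CD84 and SLAMF1 stayed at or below 7 counts in every library.

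Levels were compared between genes per kilobase of exon. In untreated CT cells MICA was at 21.9 ± 2.99 normalised CPM per kb (SD, n = 3), followed by MICB (7.68 ± 3.14) and ULBP3 (6.99 ± 1.41), whose ranges overlap. ULBP2 came next (4.80 ± 0.03) and did not overlap either neighbour. RAET1L (2.30), RAET1G (1.81), ULBP1 (1.25) and NCR3LG1 (1.24) each overlapped the gene above, apart from RAET1L, and RAET1E (0.316) was below all of these. With IFNγ in CT, MICB (32.3 ± 4.91) overlapped MICA (35.4 ± 6.37), and both were far above ULBP2 (3.20 ± 1.42). In untreated KO cells, RAET1G (2.17 ± 0.72) ranked second after MICA (12.4 ± 3.16), and MICB (0.87 ± 0.32), ULBP3 (0.86 ± 0.13) and NCR3LG1 (0.86 ± 0.24) overlapped. With IFNγ in KO, MICB (3.49 ± 1.06) was again second, below MICA (20.7 ± 3.57).

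The summed level of the 8 NKG2D ligand genes was 43.1 to 50.3 normalised CPM per kb in untreated CT libraries, 67.3 to 85.1 with IFNγ, 13.8 to 21.1 in untreated KO and 24.1 to 34.6 in KO with IFNγ. All 6 KO libraries were therefore below all 6 CT libraries. MICA made up 46.4% ± 2.97 of the sum in untreated CT and 69.8% ± 7.04 in untreated KO (SD, n = 3). The share of MICB went from 16.1% ± 5.83 to 41.3% ± 2.29 with IFNγ in CT and from 4.82% ± 1.21 to 12.0% ± 1.41 in KO. The summed ULBP and RAET1 genes moved the other way in CT, from 16.0 to 19.8 per kb untreated down to 8.91 to 12.2 with IFNγ. In KO they stayed at 3.41 to 5.85 untreated and 3.28 to 5.11 with IFNγ. These sums and shares follow from the values above and were not tested.

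**Figure D3:**
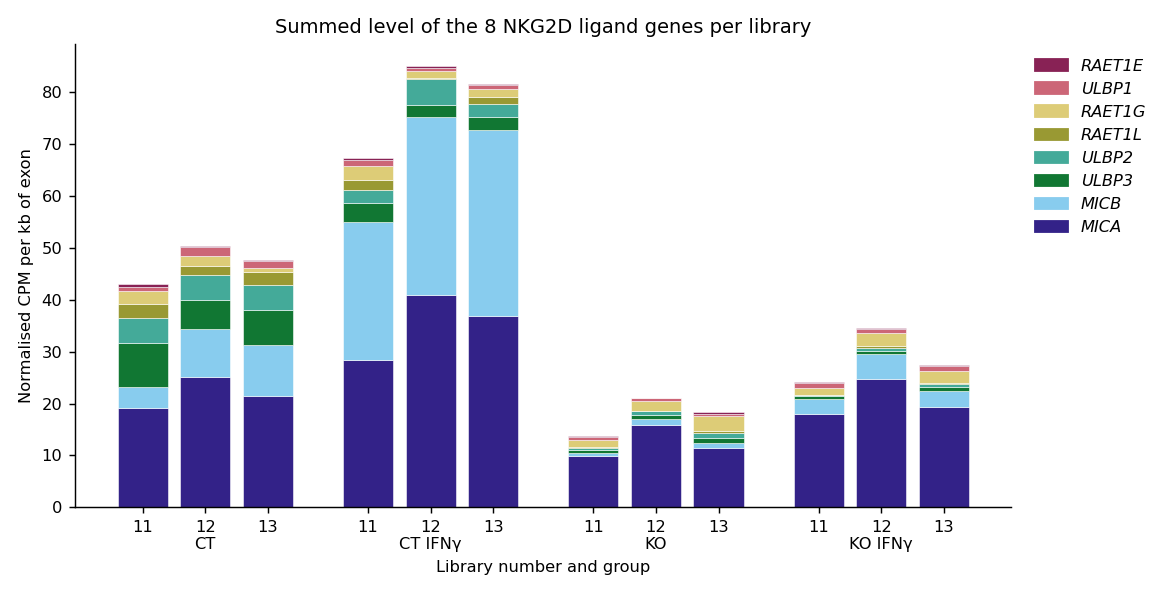
Normalised CPM per kb of exon (y axis, linear from 0) of the 8 NKG2D ligand genes, stacked for each library (x axis, by number and group). MICA and MICB fill most of the bars in IFNγ-treated CT libraries, and the sum is 13.8 to 34.6 in KO libraries against 43.1 to 85.1 in CT libraries.

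The ligand genes that differed between the lines were set beside the genes within 100 kb of them, which were looked at after the values of the ligands were known. At 6q25, ULBP2, ULBP1, RAET1L and ULBP3 are consecutive among the 6 ligand genes, and all 4 were lower in untreated KO, whereas RAET1G and RAET1E at the other end were not called. Under IFNγ, ULBP1 was at -0.01 (adjusted p = 0.987), while ULBP2, RAET1L and ULBP3 were lower. The pseudogene RAET1K between ULBP1 and RAET1L (mean 0.58 normalised CPM) was not called untreated (-0.85, adjusted p = 0.348) or under IFNγ (-2.41, adjusted p = 0.088). Among the other genes with a mean of at least 1 normalised CPM, PPP1R14C beyond ULBP3 was lower in untreated KO (-0.88, adjusted p = 0.00087) and was at -0.35 under IFNγ (adjusted p = 0.111, and 0.0216 with the block). PCMT1 and LRP11 beyond RAET1E were not called untreated (-0.09 and 0.24) or under IFNγ (0.08 and 0.34). Nor were the protein-coding gene that overlaps RAET1E (-0.42 untreated and -0.96 under IFNγ) and the small RNA RF01210 (-0.93 and -1.27). At 6p21, HCP5, a long noncoding RNA between MICA and MICB, was lower in KO, with log2 differences of -4.94 untreated and -3.41 under IFNγ. It rose with IFNγ by 4.74 in CT and by 6.23 in KO. HLA-B, TNF and LTA on either side were also lower in KO, untreated (-2.16, -2.98 and -3.50) and under IFNγ (-1.88, -3.16 and -3.16), whereas DDX39B (0.20 and 0.09) and NFKBIL1 (0.25 and 0.22) were not called. AL645933.2 (0.28 and -0.25), AL671883.2 (-0.79 and -1.01) and SNORD117 (0.28 and 0.11) were not called either. Among all genes tested, 18.2% were lower in untreated KO and 15.7% under IFNγ. Below a mean of 1 normalised CPM, AL355312.3 within the span of LRP11 (mean 0.333) was called lower under IFNγ (adjusted p = 0.0331). AL645933.1, which overlaps the start of HCP5 on the opposite strand (mean 0.36), was called lower untreated (adjusted p = 0.0094). Neither gene reached 10 counts over the KO libraries, so each passed the minimum of 10 counts between the lines through CT libraries. Copy number of these regions was not measured here.

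**Figure D4:**
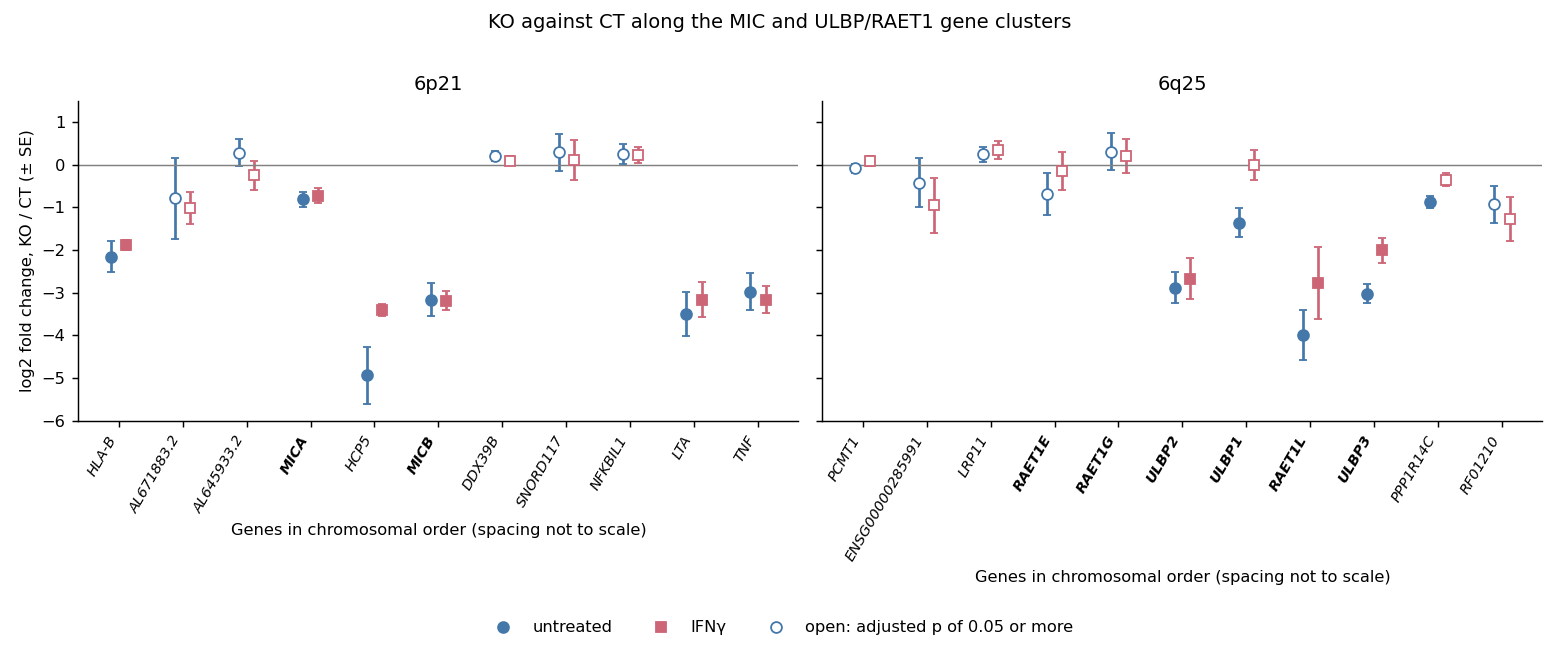
Log2 fold change of KO against CT (y axis, with standard errors) for the ligand genes (bold) and for genes within 100 kb with a mean of at least 1 normalised CPM, in chromosomal order (x axis, spacing not to scale). MICB, HCP5, TNF and LTA lie near or below -3 untreated while DDX39B and NFKBIL1 lie above 0, and the 4 ligand genes from ULBP2 to ULBP3 lie from -1.37 to -3.99 untreated.

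Of 10 listed ligands of other activating NK receptors, 9 were tested with IFNγ in each line. ICAM1, the LFA-1 ligand that lets NK cells adhere, rose in CT (5.95) and in KO (3.37), and no other passed in either line, where 3.53% and 0.978% of all genes rose. With the block, 4 of the 9 rose in CT, against 8.67% of all genes. ICAM1 was the only gene of this list with a called interaction (-2.59 ± 0.42, adjusted p = 0.0199). Between the untreated lines, 4 of 10 were lower in KO and none was higher, against 18.2% and 14.0% of all genes, namely ICAM2, CD58 (-1.46), PVR (-0.48) and BAG6 (-0.42). With the block, 5 were lower and 1 was higher, against 20.6% and 15.9% of all genes. ICAM2 had 146 counts in untreated CT and 1 in untreated KO, so it passed the minimum of 10 counts only through CT libraries. Under IFNγ, 4 of 9 were lower in KO and 1 was higher, against 15.7% and 13.2% of all genes. ICAM1 (-3.42), ICAM2, CD58 (-1.01) and PVR (-0.69) were lower, and CLEC2B, the NKp80 ligand, was higher with 42 counts in KO and 3 in CT. In this comparison ICAM2 passed the minimum of 10 counts only through CT libraries, and CLEC2B only through KO libraries. With the block, 5 of this list were lower and 2 higher under IFNγ (17.9% and 16.0% of all genes). PVR and NECTIN2 engage DNAM-1, and NECTIN2 was not called in the unblocked test and was called with the block as higher with IFNγ in CT (0.60, adjusted p = 0.00013) and lower in KO under IFNγ (-0.50, adjusted p = 0.0194).

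Of 12 listed ligands of inhibitory receptors, 11 were tested. In CT, 7 rose with IFNγ, against 3.53% of all genes, among them HLA-B (3.95), HLA-F (3.78) and HLA-E (2.86), the ligand of NKG2A. In KO, 5 rose, against 0.978% of all genes, with HLA-F at 4.29 and HLA-E at 2.45. With the block, 8 rose in CT and 7 in KO (8.67% and 3.92% of all genes), and 2 had a called interaction (1.21%), where none did without it. HLA genes share long stretches with one another, so how reads were divided among them is uncertain. In untreated KO, 7 of 11 were lower and 1 was higher (18.2% and 14.0% of all genes), and under IFNγ 9 were lower and 1 was higher (15.7% and 13.2%). CEACAM1 showed the largest fall of the list in KO (-7.24 untreated, -6.35 under IFNγ), and CLEC2D, the ligand of CD161, was the gene that was higher (1.13 and 1.25).

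Among 11 listed genes of ligand shedding, 3 were higher and 7 lower in untreated KO, where 14.0% and 18.2% of all genes were called, and 2 were higher and 5 lower under IFNγ, against 13.2% and 15.7%. The list holds proteases and their inhibitors. Of the inhibitors, TIMP1 (-2.19 and -1.98) and TIMP2 (-2.34 and -1.94) were lower in KO and TIMP3 was higher (0.46 and 0.67), untreated and under IFNγ. MMP14, a membrane protease that cleaves MICA, was higher by 1.24 and 1.20. Among the ADAM proteases, which also cut these ligands, ADAM9 was lower in both comparisons (-1.27 and -1.22) and ADAM10 was lower untreated (-0.43) and at -0.10 under IFNγ (adjusted p = 0.557). ADAM17 was higher untreated (0.43, adjusted p = 0.0124) and at 0.26 under IFNγ (adjusted p = 0.174), with an interaction of -0.20 (adjusted p = 0.924). MMP2 was the largest fall, with 80 counts in untreated CT and 4 in untreated KO, and passed the minimum of 10 counts only through CT libraries. MMP9 was lower untreated (-2.70) and at -1.24 under IFNγ (adjusted p = 0.330). With IFNγ only PDIA6, a disulphide isomerase that acts on MICA before cleavage, was called, in CT (0.69), where 3.53% of all genes rose and 1.82% fell, and none of 10 was called in KO (0.978% and 0.00414%). PDIA6 was also lower in KO than in CT, untreated (-0.37) and under IFNγ (-0.88). With the block, 2 genes of the list rose and 4 fell in CT, against 8.67% and 9.88% of all genes, and 2 fell in KO, against 1.6%, and 1 had a called interaction, against 1.21%. Of 15 regulators of stress and DNA damage, DDIT3 alone was called with IFNγ in CT (1.61) and none in KO, where 3.53% and 0.978% of all genes rose, while 7 and 3 rose with the block, against 8.67% and 3.92% of all genes. In untreated KO, 4 of the 15 were lower and 1 was higher, beside 18.2% and 14.0% of all genes, with HSF1, which binds heat shock elements, at -0.72 and HSPA1B at 0.49. With the block, 6 were lower and 2 higher, against 20.6% and 15.9%. Under IFNγ, 5 were lower and 1 was higher (15.7% and 13.2% of all genes), with NFKB1 at -0.65, and 6 were lower with the block (17.9%).

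The genes whose pattern was most like that of each ligand were found by Pearson's r of log2 normalised CPM over the 12 libraries, among 15677 genes with a mean of at least 1 CPM. For MICA these included CD47 (0.96) and MOB3C (0.96), and for MICB they were BIRC2 (0.99), ARNTL2 (0.98) and MLKL (0.98). SEPTIN3 (0.99), NSF (0.99) and SARAF (0.99) led for ULBP2, and FAM126A (0.99), RPL7 (0.99) and KRT13 (0.99) for ULBP3. UBE2E2 (0.99), TMEM236 (0.98) and GATA3 (0.98) led for RAET1L, and CEP164 (0.97), PIAS2 (0.95) and MMACHC (0.94) for NCR3LG1. For ULBP1, RAET1E and RAET1G the highest values were 0.88 (SLC35C1), 0.83 (RPL4P4) and 0.84 (COMMD6). Among the ligands themselves, MICA and MICB were most alike (0.94), followed by ULBP3 with RAET1L (0.94) and with ULBP2 (0.94), while MICA and NCR3LG1 gave -0.25. The 12 points share 2 lines, 2 treatments and the library numbers, so these values describe the 4 groups more than single libraries.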

How the data were processed

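Total RNA of HT1376 CT and FOXP3 KO cells was extracted with Trizol and sequenced after ribosomal RNA depletion (KAPA RNA HyperPrep with RiboErase). The authors removed Mycoplasma reads with Kraken, aligned with STAR 2.7.11a to hg38 and deposited raw htseq-count counts per gene. The strand setting is not given in the sources used here, so overlapping antisense genes are uncertain.

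Counts were tested with edgeR 4.0.16 (quasi-likelihood, TMM, genes with at least 10 counts in the libraries fitted) in R 4.3.3, on 6 libraries per pairwise comparison and 12 for the interaction. Benjamini-Hochberg adjustment ran over all genes, with a threshold of 0.05. Normalised CPM used TMM factors over 12 libraries, and kilobases are the union of GENCODE exons. DESeq2 1.42.0 and the other alternatives are described with the limits. The tests were tried on simulated counts that held no pairing of libraries and no changes in genes with few counts. That trial does not cover low-count ligand genes or paired libraries. Deviations from group means correlated over 15677 genes at 0.126 to 0.564 between libraries of the same number and at -0.44 to 0.161 otherwise, so the numbers were taken to pair libraries. The main tests did not use this pairing, and only the fits with the library number as a block did. No pair of libraries was identical. All ligand genes were named. Of each other list, the called genes with the largest rise and fall were named, with added members chosen after their values were seen. The genes and lists were chosen with earlier results of these data known. Upper limits for counts of 0 cover counting error only. Standard errors were derived from the log2 fold change and the edgeR quasi-likelihood F statistic, and include the spread between libraries. Promoters are from RefSeq (GRCh38.p14). Some genes that the naming rules select are not reported here.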

Additional observations from a re-analysis of the deposited data

How the results depend on the processing

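Among log2 values of single ligand genes under other settings with all libraries, 348 kept their direction and side of the threshold, 7 passed it newly (MICA in KO, ULBP2 and NCR3LG1) and 7 changed sign. The settings were RLE scaling, DESeq2, no count filter, filterByExpr, bias-adjusted deviance, the library number as a block, both together, and all 12 libraries in 1 fit. The number of ligand genes called with IFNγ in CT was 3, and 5 with the block. The number called in KO was 1, and 2 with the block, with the block and bias-adjusted deviance, or with no count filter. Among the 10 ligand genes, the block changed no call other than those of MICA in KO and of ULBP2 and NCR3LG1 in CT. Leaving out each library gave 2 to 3 (CT), 0 to 2 (KO), 5 to 6 (untreated lines), 4 to 5 (lines under IFNγ) and 0 to 0 (interaction) called ligand genes.

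Values near 0 changed sign. ULBP1 between the lines under IFNγ was 0.0026 with RLE scaling, 0.0021 without the filter and 0.0099 with the block, and RAET1E was 0.0076 with the block and bias-adjusted deviance. The NCR3LG1 interaction was -0.0037 with DESeq2, -0.0248 with bias-adjusted deviance and -0.0012 with the block added. With 1 library left out, the IFNγ effect ranged from -0.33 to 0.44 for RAET1E and from -0.36 to 0.43 for RAET1G in CT, and in KO from -0.27 to 0.23 for RAET1G and from -0.0199 to 1.22 for RAET1L. Between untreated lines RAET1G ranged from -0.0619 to 0.68. Under IFNγ ULBP1 ranged from -0.12 to 0.19 and RAET1E from -0.45 to 0.10. The interaction ranged from -0.0477 to 0.36 for MICA, -0.33 to 0.30 for MICB, -0.10 to 0.72 for ULBP2, -0.44 to 0.35 for RAET1G and -0.15 to 0.31 for NCR3LG1. The cause was not tested.

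Genes called over the whole table moved by more than 1.5 times from 1307 to 2248 without the filter, 4530 with the block and 4102 with both block and bias-adjusted deviance (IFNγ in CT), from 237 to 1334 and 1027 with the block (IFNγ in KO), and from 31 to 151 with DESeq2, 294 without the filter and 336 and 230 with the block (interaction). A 2-fold minimum gave 679 in CT, 4944 for the untreated lines (8135 without it) and 4625 under IFNγ (7046 without it), and a 4-fold minimum gave 2948. For IFNγ in CT, the count was 808 without untreated CT library 11, 839 without untreated CT library 13 and 761 without IFNγ-treated CT library 13. For the interaction it was 15 to 20 without untreated CT library 11 or 13, IFNγ-treated CT library 12 or 13, untreated KO library 11, or IFNγ-treated KO library 11 or 13.

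Depth limits RAET1L and CD48 most, with 310 and 11 counts over all libraries. Where a group kept 2 libraries, the spread was pooled over both groups fitted.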
